A study of Mus musculus with 9 samples.

Results

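Interferon-stimulated genes are the genes that cells switch on after interferon binds its receptor, and 39 of them were followed here in RNA-sequencing of mouse haematopoietic stem and progenitor cells. The 39 genes were taken by name from a table of 24060 named genes, without a criterion on their own values but with earlier results of these data known, and all 39 passed the filter on low counts. The cells were LSK cells, which lack lineage markers and carry Sca-1 and Kit, sorted from bone marrow of C57BL/6 background. The labels give an age of 4 months, which in the study's description is the time since transplantation. There were 3 control libraries, 2 from marrow carrying NHD13 and 4 labelled as NHD13/MSI2. NHD13 is the NUP98-HOXD13 fusion gene of myelodysplastic syndrome (MDS) and leukaemia, here a transgene under the blood-wide Vav promoter. MSI2 is the RNA-binding protein Musashi2, placed at the Col1a1 locus behind a promoter that doxycycline opens through the rtTA activator expressed from ROSA26, so both agents are needed for its induction. Per the study's methods the marrow of each genotype had been transplanted into lethally irradiated congenic recipients with helper marrow, and the cells were collected after 3 months of doxycycline and before overt disease. The library names carry the word dox for the NHD13/MSI2 group only. The study refers to transplanted animals, with a group size equal to the number of libraries, whereas the labels name no animal for a library. The p-values measure the spread between these libraries.

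Several features of the libraries bear on every comparison. Between 19242153 and 23013493 reads were counted per library, so that a floor of 3 counts lay at or below 0.156 CPM (counts per 1000000 counts of the library). Hoxd13, whose 3′ end the fusion transgene contains, was at 0 CPM in the 3 controls and at 0.648 to 1.13 CPM in the other 6 libraries. The endogenous mouse gene Msi2 was at 223, 316 and 266 CPM in control, at 139 and 111 CPM in NHD13, and at 88.0, 77.1, 82.8 and 241 CPM in the libraries labelled NHD13/MSI2. Whether reads of the induced transgene are counted there is not given in the sources used here, so this gene does not check the label, and every direction below for NHD13/MSI2 rests on the label alone. Replicate 4 of NHD13/MSI2 stood apart from the other 8 libraries, with Actb at 51602 CPM against 7525 to 11649 CPM elsewhere. The controls mixed both sexes, since Xist, the X inactivation RNA, reached 888 and 866 CPM in replicates 1 and 3 but only 2.33 CPM in replicate 2. The 6 libraries with NHD13 were at or below 1.90 CPM, so sex moves with every comparison over control, and its part was not tested. Control replicates 2 and 3 also carry MPP_HSC in their library names, where control replicate 1 carries Bulk. Kit, which the sort selects, was at 908 to 2254 CPM throughout, while the stem cell factor gene Hlf was at 284 to 477 CPM in control, 26.1 and 10.03 CPM in NHD13 and 0.0499 to 0.779 CPM in NHD13/MSI2.

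Type I interferons bind a receptor made of IFNAR1 and IFNAR2, whose kinases JAK1 and TYK2 phosphorylate STAT proteins. STAT2 with IRF9 acts in the ISGF3 complex, which binds the interferon-stimulated response element (ISRE) in the promoters of many interferon-stimulated genes. Interferon gamma acts mainly at the gamma-activated site (GAS). In haematopoietic stem cells the same signal can drive cells out of quiescence, and low tonic signalling keeps many of these genes on without infection.

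Members moved in both directions. With NHD13/MSI2 over control, 6 of 39 (15.4%) passed an adjusted p of 0.01, against 11.0% of all 13355 genes tested (edgeR's quasi-likelihood test, Benjamini-Hochberg adjustment over all genes). Of these, 4 rose (10.3%, against 4.49% of all genes), namely Mx1, Trim30a, Ifi35 and Ly6e, and 2 fell (5.13%, against 6.55%), namely Ddx58 and Rtp4. At an adjusted p of 0.05 the member count was 12, against 20.6% of all genes. The median log2 fold change over the 39 members was 0.34 and ranged from -1.85 to 2.35, where the median over all genes was -0.01. It was positive in 28 members, against 49.1% of all genes.

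With NHD13/MSI2 over NHD13 no member passed the adjusted p of 0.01 by edgeR, where 3.17% of all genes did, 0.584% higher and 2.58% lower. At an adjusted p of 0.05, 2 members were higher, Mx1 and Trim30a, against 2.24% of all genes, and DESeq2 called 3 members (7.69%) at 0.01, against 9.47% of all genes. At an unadjusted p of 0.05, 15 members differed, 13 higher and 2 lower, against 7.84% and 13.9% of all genes. The median of the member log2 fold changes was 0.32 and 30 were positive, against a median of -0.03 and 47.3% positive over all genes. The highest was 1.66, for Mx1, and the lowest was -0.996, for Samd9l.

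With NHD13 over control no member passed the adjusted p of 0.01 either, where 1.03% of all genes did, 0.824% higher and 0.210% lower. None passed 0.05, against 2.89% of all genes, and DESeq2 called 1 (2.56%) at 0.01, against 4.12% of all genes. At an unadjusted p of 0.05, 5 members differed by edgeR, of which Gbp3 and Ly6e were higher, against 7.66% of all genes, and Ddx58, Eif2ak2 and Gbp2 were lower, against 5.83%. The median was -0.09, with 18 positive and 21 negative members, beside 0.02 over all genes, and its sign turned without control replicate 1 (0.05) or without NHD13 replicate 2 (0.02). The 3 comparisons share libraries, so their values are given side by side and are not counted as separate evidence.

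**Figure D1:**
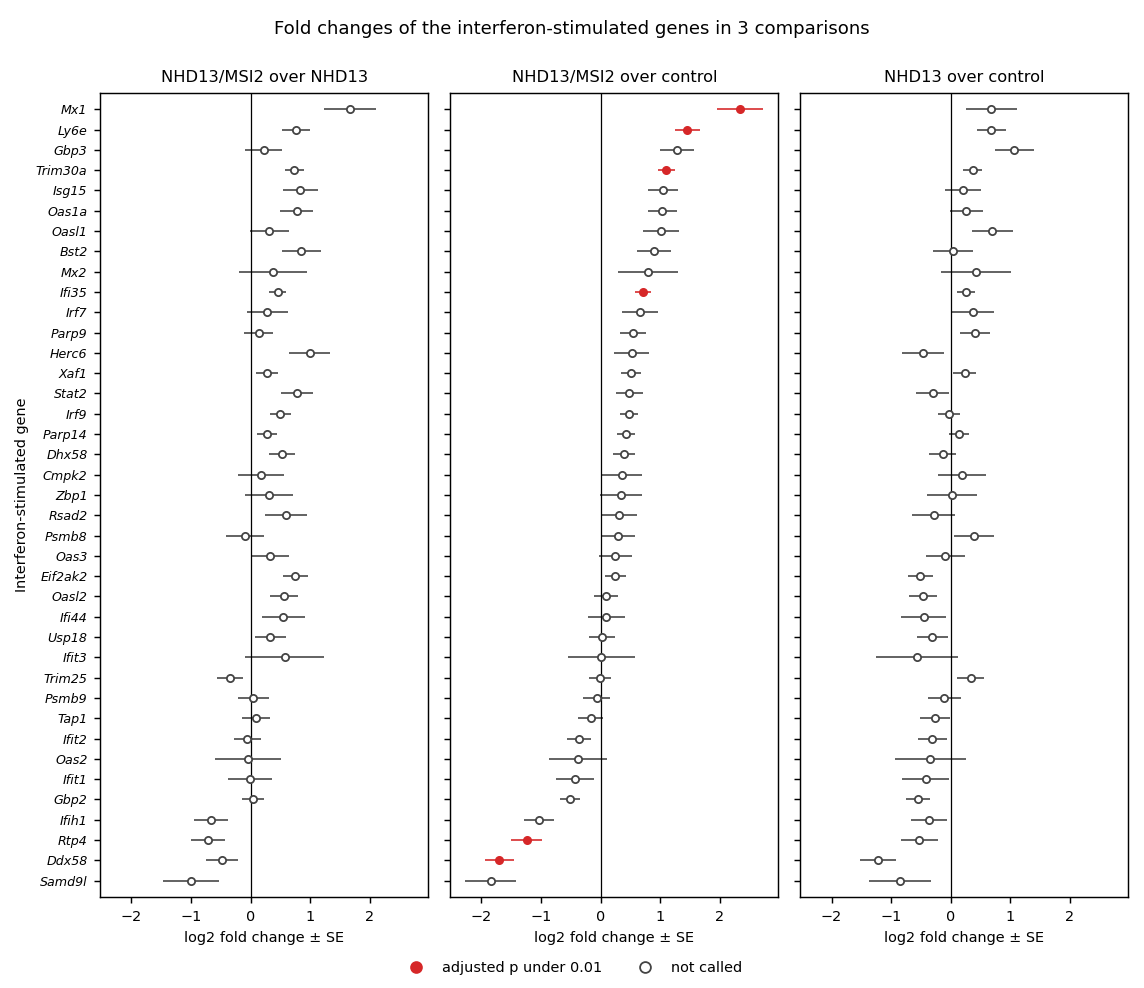
Fitted log2 fold change of each of the 39 members in the 3 comparisons, 1 row per gene in the order of NHD13/MSI2 over control, with bars of 1 standard error (SE) and filled red points for members past the adjusted p of 0.01. The 4 red points to the right of 0 and the 2 to the left all belong to NHD13/MSI2 over control.

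Whether the libraries of the groups overlapped was counted separately from the fit. All 4 NHD13/MSI2 libraries lay above both NHD13 libraries in 14 of 39 members (35.9%), against 13.0% of all genes, and all lay below in 1 member (2.56%), Rtp4, against 16.9%. Against the 3 controls, 12 members (30.8%) lay wholly higher in NHD13/MSI2, where 15.3% of all genes did, and 6 (15.4%) wholly lower, where 20.4% did. Both NHD13 libraries lay above the controls in 7 members (17.9%) and below in 4 (10.3%), beside 18.9% and 18.5% of all genes. The NHD13 over control shares were therefore no larger than the background, whereas the shares higher in NHD13/MSI2 were above it.

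**Figure D2:**
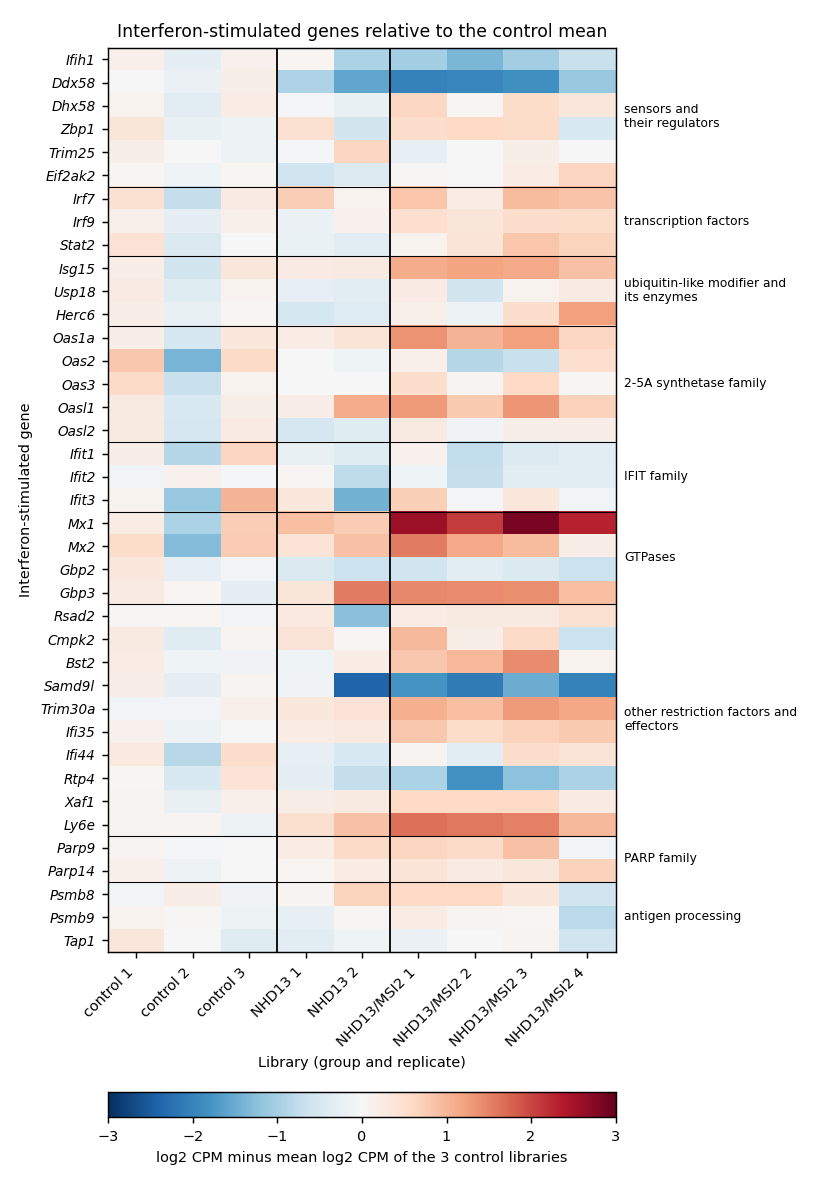
Heat map of the 39 members in the 9 libraries, each cell showing the log2 CPM of a gene minus its mean over the 3 control libraries, on a colour scale from -3 to 3 (blue lower, red higher). Mx1 is red and Ddx58, Rtp4 and Samd9l are blue across the 4 NHD13/MSI2 libraries, and control replicate 2 is bluer than the other controls in most rows.

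Among the cytosolic RNA sensors and their regulators, 1 gene was called and it fell. Ddx58 encodes RIG-I, the helicase that detects RNA with a 5′ triphosphate, and lies at chr4:40203773-40239828 on the minus strand (GENCODE M21, GRCm38). Its level was 128, 111 and 142 CPM in control, 66.2 and 42.9 CPM in NHD13 and 31.1, 32.6, 35.3 and 57.5 CPM in NHD13/MSI2. Every library with NHD13 lay below every control, and the NHD13 and NHD13/MSI2 libraries overlapped. Ddx58 fell with NHD13/MSI2 over control, 3.25-fold, with a log2 fold change of -1.70 ± 0.25 (SE, n = 4 against 3, adjusted p = 0.0014 by edgeR). With NHD13 over control the log2 fold change was -1.22 ± 0.30 (adjusted p = 0.0762 by edgeR), and with NHD13/MSI2 over NHD13 it was -0.48 ± 0.27 (adjusted p = 0.359 by edgeR).

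Ifih1, at 119, 87.5 and 116 CPM in control, encodes MDA5, the sensor of long double-stranded RNA. It was at 111 and 55.4 CPM in NHD13 and at 52.0, 40.8, 51.6 and 66.5 CPM in NHD13/MSI2. The NHD13/MSI2 libraries lay below all 3 controls, but the log2 fold change of -1.03 ± 0.25 did not pass (adjusted p = 0.0182 by edgeR). NHD13 replicate 1 sat among the controls and replicate 2 among the NHD13/MSI2 libraries. Dhx58, encoding LGP2, the regulator of both sensors, was at 32.4 to 47.7 CPM in control, 35.2 and 40.1 CPM in NHD13 and 42.2 to 62.7 CPM in NHD13/MSI2, above both NHD13 libraries and overlapping the controls. Trim25, the ubiquitin ligase that activates RIG-I, and Zbp1, the sensor of Z-form nucleic acid, overlapped between all groups.

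Eif2ak2 encodes PKR, the kinase that stops translation when it binds double-stranded RNA. It was at 113, 99.6 and 114 CPM in control, 71.7 and 81.1 CPM in NHD13 and 111, 109, 126 and 169.9 CPM in NHD13/MSI2. Both NHD13 libraries were the lowest of the 9, and the NHD13/MSI2 libraries overlapped the controls. The log2 fold change of NHD13/MSI2 over NHD13 was 0.75 ± 0.20 (adjusted p = 0.051 by edgeR) and that of NHD13 over control was -0.51 ± 0.21 (adjusted p = 0.325 by edgeR). Over the 6 sensors and regulators, 3 log2 fold changes of NHD13/MSI2 over control were positive and 3 negative, with a median of 0.12.

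Of the ISGF3 and feedback transcription factors none passed the test. Irf9, the DNA-binding subunit of ISGF3, was at 161, 118 and 160.3 CPM in control, 129 and 159 CPM in NHD13 and 206, 186, 208 and 214 CPM in NHD13/MSI2. The 4 NHD13/MSI2 libraries lay above the other 5, with a log2 fold change over control of 0.48 ± 0.15 (adjusted p = 0.0569 by edgeR). Stat2, its partner, was at 108, 59.8 and 80.4 CPM in control, 69.5 and 64.8 CPM in NHD13 and 86.5, 106, 143 and 128 CPM in NHD13/MSI2. The NHD13/MSI2 libraries lay above both NHD13 libraries and overlapped control replicate 1 (log2 fold change over NHD13 0.79 ± 0.27, adjusted p = 0.115 by edgeR). Irf7, the factor that amplifies type I interferon transcription, was at 52.4, 23.3 and 45.5 CPM in control, 63.9 and 41.3 CPM in NHD13 and 68.2, 44.3, 74.2 and 69.7 CPM in NHD13/MSI2. The groups overlapped for Irf7 (log2 fold change over control 0.66 ± 0.30, adjusted p = 0.16 by edgeR).

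The ISG15 system gave 3 positive values without a call. Isg15, a ubiquitin-like modifier, was at 8.01, 4.70 and 8.76 CPM in control, 8.28 and 8.30 CPM in NHD13 and 15.0, 15.9, 15.4 and 12.9 CPM in NHD13/MSI2. The 4 NHD13/MSI2 libraries lay above the other 5, and the log2 fold change over control was 1.05 ± 0.26 (adjusted p = 0.018 by edgeR). Usp18, the protease that removes ISG15 and damps the receptor, was at 61.0, 40.2 and 55.3 CPM in control, 43.5 and 40.9 CPM in NHD13 and 61.2, 35.3, 55.3 and 60.8 CPM in NHD13/MSI2. Its groups overlapped fully (log2 fold change over control 0.03 ± 0.22, adjusted p = 0.953 by edgeR). Herc6, the mouse ligase that attaches ISG15, was at 57.6, 42.7 and 51.5 CPM in control and 35.0 and 38.1 CPM in NHD13. In NHD13/MSI2 it was at 45.5 to 117 CPM, with the highest value in replicate 4. The NHD13/MSI2 libraries overlapped the controls (log2 fold change over control 0.52 ± 0.295, adjusted p = 0.255 by edgeR), and both NHD13 libraries lay below them.

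The oligoadenylate synthetases make the short adenylate chains that activate RNase L. Oas1a was at 42.1, 25.8 and 45.6 CPM in control, 42.7 and 48.3 CPM in NHD13 and 93.7, 74.0, 86.6 and 56.7 CPM in NHD13/MSI2. All 4 NHD13/MSI2 libraries exceeded the other 5, replicate 4 by the least (log2 fold change over control 1.04 ± 0.24, adjusted p = 0.0132 by edgeR). Oasl1 was higher in every NHD13/MSI2 library than in the controls, at 18.4 to 28.6 CPM against 8.35 to 13.7 CPM, but overlapped NHD13 replicate 2 at 24.7 CPM. Oas2, Oas3 and Oasl2 overlapped the controls. The reads of Oas1a and its near copy Oas1g may not have been told apart by the counting. The same holds for other duplicated members such as Gbp, Ifit and Mx genes and Trim30a.

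The IFIT proteins restrict the translation of viral RNA, and none of the 3 genes was called. Ifit1 was at 36.9, 17.7 and 50.02 CPM in control, 27.2 and 24.995 CPM in NHD13 and 34.7, 19.2, 24.03 and 25.6 CPM in NHD13/MSI2. All the libraries with NHD13 fell inside the range of the controls (log2 fold change of NHD13/MSI2 over control -0.43 ± 0.33, adjusted p = 0.406 by edgeR). Ifit3 likewise overlapped, at 1.90 to 8.797 CPM in control and 4.02 to 7.14 CPM in NHD13/MSI2. Ifit2 was at 55.8 to 81.4 CPM in NHD13/MSI2, below the 84.8 to 98.6 CPM of the controls.

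Mx1, an interferon-induced GTPase that traps viral nucleocapsids, had the highest fold of the 39 members, although C57BL/6 mice carry a deletion within the gene that removes its antiviral activity. Its gene lies at chr16:97447035-97462907 on the minus strand (GRCm38). It was at 5.32, 2.33 and 7.64 CPM in control, 8.601 and 7.80 CPM in NHD13 and 27.7, 19.9, 33.2 and 23.1 CPM in NHD13/MSI2. The 4 NHD13/MSI2 libraries lay above the 2 NHD13 libraries, which lay above the 3 controls. Mx1 rose 5.09-fold over control, with a log2 fold change of 2.35 ± 0.39 (adjusted p = 0.00269 by edgeR), and the call was lost without control replicate 1. Over NHD13 the log2 fold change was 1.66 ± 0.44 (adjusted p = 0.0461 by edgeR). Its paralogue Mx2 overlapped between groups, at 1.71 to 7.48 CPM in control and 4.997 to 13.0 CPM in NHD13/MSI2.

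The guanylate-binding proteins, GTPases that act on vacuoles holding pathogens, went opposite ways. Gbp3 was at 123, 108 and 84.0 CPM in control, 133 and 307 CPM in NHD13 and 279.9, 275, 275 and 193 CPM in NHD13/MSI2. The 6 libraries with NHD13 all lay above the controls, and NHD13 replicate 2 was the highest of the 9 (NHD13/MSI2 over control 1.28 ± 0.29 in log2, adjusted p = 0.0119 by edgeR). Gbp2 was at 90.1 to 134 CPM in control, 69.0 and 79.8 CPM in NHD13 and 68.9 to 86.2 CPM in NHD13/MSI2, so the 6 libraries with NHD13 all lay below the controls. Neither gene passed 0.01 in any comparison.

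**Figure D3:**
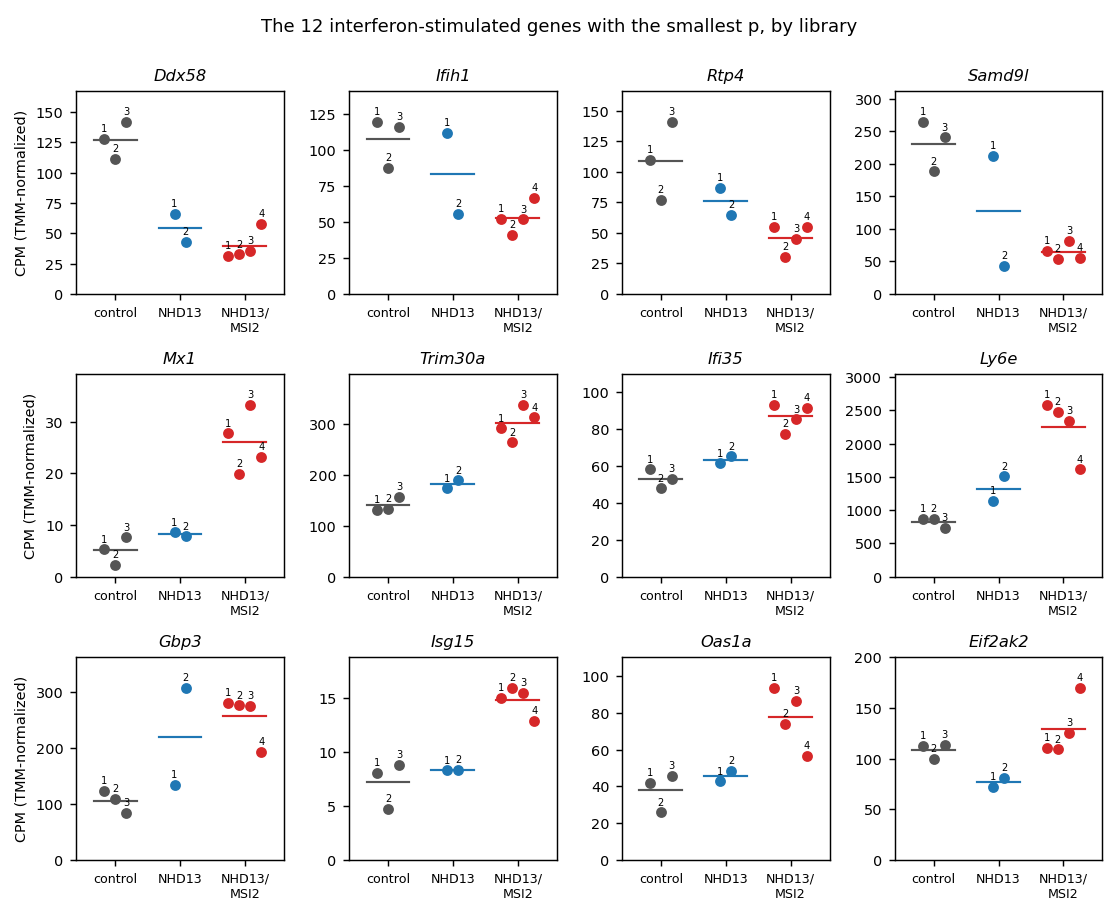
CPM of each library for the 12 members with the smallest p, 1 panel per gene with its own linear axis from 0, points for libraries numbered by replicate and a line at each group mean. Mx1, Trim30a, Ifi35 and Ly6e step up from control to NHD13/MSI2 with no overlap, and Ddx58 and Rtp4 are lower in NHD13/MSI2 than in control.

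Among the other restriction factors, Trim30a had the smallest p of all members. Trim30a, a mouse TRIM protein that dampens Toll-like receptor signalling, lies at chr7:104409025-104465193 on the minus strand (GRCm38). It was at 132, 133 and 157 CPM in control, 173 and 189 CPM in NHD13 and 290.5, 263, 336 and 312 CPM in NHD13/MSI2. The groups formed 3 separate ranges. Trim30a rose 2.14-fold over control (log2 fold change 1.10 ± 0.14, adjusted p = 0.000835 by edgeR), and the log2 fold change over NHD13 was 0.73 ± 0.16 (adjusted p = 0.0237 by edgeR). Trim30a and Ddx58 were the members called over control whichever of the 9 libraries was left out.

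Ly6e, a GPI-anchored surface protein of the Sca-1 family that blocks coronavirus entry, lies at chr15:74955051-74959905 on the plus strand (GRCm38). It was at 869.6, 867 and 734 CPM in control, 1139 and 1507 CPM in NHD13 and 2580.3, 2476, 2344 and 1612 CPM in NHD13/MSI2. The 3 groups again held separate ranges, with NHD13/MSI2 replicate 4 just above NHD13 replicate 2. Ly6e rose 2.74-fold over control (log2 fold change 1.45 ± 0.21, adjusted p = 0.0014 by edgeR), a call lost without control replicate 3. The log2 fold change was 0.77 ± 0.24 over NHD13 (adjusted p = 0.0818 by edgeR) and 0.68 ± 0.24 for NHD13 over control (adjusted p = 0.213 by edgeR). Per kilobase of exon, Ly6e was the most abundant member in each group, at 217.6, 349.6 and 595.4 CPM per kb in control, NHD13 and NHD13/MSI2, followed in control by Psmb8 at 93.9 CPM per kb, while Mx1 was the least abundant in control at 1.35 CPM per kb.

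Ifi35, a leucine zipper protein that is secreted as a danger signal, lies at chr11:101448407-101458698 on the plus strand (GRCm38). It was at 58.2, 47.8 and 53.1 CPM in control, 61.4 and 65.2 CPM in NHD13 and 93.1, 77.4, 85.3 and 91.5 CPM in NHD13/MSI2, again 3 separate ranges. It rose 1.64-fold over control (log2 fold change 0.71 ± 0.13, adjusted p = 0.00457 by edgeR), and the call was lost without any 1 of the 3 controls or without NHD13/MSI2 replicate 1 or 3. Rtp4, a transporter protein that binds TANK-binding kinase 1 and lowers the interferon response, lies at chr16:23520291-23614222 on the plus strand (GRCm38). It was at 109.7, 76.8 and 141 CPM in control, 87.0 and 64.5 CPM in NHD13 and 54.6, 30.1, 45.02 and 54.6 CPM in NHD13/MSI2. The 4 NHD13/MSI2 libraries lay below the other 5. Rtp4 fell 2.37-fold over control (log2 fold change -1.24 ± 0.26, adjusted p = 0.00861 by edgeR), and the call held in 2 of the 9 fits that left out a library, those without control replicate 2 and without NHD13/MSI2 replicate 4.

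Samd9l, a brake on the growth of haematopoietic cells that lies on the chromosome arm often lost in human MDS, was at 264, 188 and 241 CPM in control and at 213 and 43.6 CPM in NHD13. In NHD13/MSI2 it was at 65.6, 53.5, 82.0 and 55.7 CPM, below all 3 controls. NHD13 replicate 2 was the lowest of the 9 libraries and replicate 1 sat among the controls. The log2 fold change of -1.85 ± 0.43 over control, the lowest of the 39 members, did not pass (adjusted p = 0.0138 by edgeR). Bst2, or tetherin, which holds budding virions at the membrane, was at 24.9, 19.5 and 19.9 CPM in control, 19.4 and 24.8 CPM in NHD13 and 37.4, 42.3, 57.3 and 22.7 CPM in NHD13/MSI2. Replicates 1 to 3 of NHD13/MSI2 lay above the other groups and replicate 4 among them (log2 fold change over control 0.90 ± 0.29, adjusted p = 0.0533 by edgeR).

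The remaining effectors gave no call. Rsad2, or viperin, was at 30.6 to 35.6 CPM in NHD13/MSI2 and 24.6 to 27.0 CPM in control. Xaf1, a pro-apoptotic protein, was at 31.9 to 41.3 CPM in NHD13/MSI2 and 23.01 to 30.1 CPM in control. Both lay wholly above the controls, whereas Cmpk2, the nucleotide kinase beside Rsad2, and Ifi44 overlapped them. Parp14, an ADP-ribosyltransferase, lay above the other 5 libraries in NHD13/MSI2, at 70.2 to 94.8 CPM against 53.0 to 69.0 CPM, and its relative Parp9 overlapped the controls through replicate 4. The antigen processing genes Psmb8, Psmb9 (subunits of the immunoproteasome) and Tap1 (the peptide transporter) overlapped between NHD13/MSI2 and control. The 3 genes gave a median log2 fold change of -0.06 over control. Psmb9 and Tap1 share an overlap on opposite strands, and the strand setting of the counting is not given in the sources used here, so their split is uncertain.

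The promoters of the members were read for the response elements because interferon acts on its target genes through them. RefSeq promoters of GRCm38.p6, from 250 bases before to 50 after the start of the transcript, were matched for 29 of the 39 members. An ISRE core, GAAA and GAAA separated by any 2 bases and searched on both strands, was present in 14 of the 29 (48.3%, exact 95% interval 29.4 to 67.5%), against 1079 of 27025 genes (3.99%). The longer core that ends in CT was present in 8 members (27.6%), against 0.303% of genes, and all of its matches are also matches of the shorter one. The GAS sequence TTCNNNGAA was present in 6 members (20.7%), against 9.55% of genes. Of the 6 members called over control, promoters were matched for Ddx58, Trim30a and Ifi35. Ddx58 and Trim30a held the ISRE core and are shown, since they are the members called in every fit that left out a library. They moved in opposite directions. No promoter was matched for the called members Mx1, Ly6e and Rtp4, and whether the core goes with direction was not tested. Capitals mark the ISRE core, which reads on the strand printed as its reverse complement, TTTC and TTTC separated by any 2 bases. The Ddx58 stretch is chr4:40239811-40239925, from -100 to 15 relative to the start, and its core lies just after the start, at positions 3 to 12. The Trim30a stretches, of alternative promoters, are chr7:104465179-104465293 with the core at -36 to -27 and chr7:104446111-104446225 with the core at 3 to 12, and all are printed 5′ to 3′ on the minus strand of the genome.
Ddx58: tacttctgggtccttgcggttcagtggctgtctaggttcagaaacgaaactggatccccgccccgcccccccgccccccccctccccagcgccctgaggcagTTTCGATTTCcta
Trim30a promoter 1: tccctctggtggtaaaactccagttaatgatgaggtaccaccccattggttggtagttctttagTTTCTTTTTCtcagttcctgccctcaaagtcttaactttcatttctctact
Trim30a promoter 2: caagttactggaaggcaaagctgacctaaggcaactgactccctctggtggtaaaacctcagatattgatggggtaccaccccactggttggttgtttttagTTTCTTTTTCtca
Ifi35 held no ISRE core in this window and had a GAS sequence beginning at position 8.

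The elements of the best-known members that held a core are shown with them to compare spacing and copy number, a choice made after the matches were known. Capitals again mark the ISRE cores, overlapping cores being run together. The stretches are chr10:128270264-128270297 on the plus strand for Stat2, chr4:156200863-156200908 on the minus strand for Isg15, chr5:120907518-120907557 on the minus strand for Oas1a, chr19:34640773-34640825 on the plus strand for Ifit1 and chr8:71537575-71537614 on the minus strand for Bst2 (GRCm38.p6).
Stat2: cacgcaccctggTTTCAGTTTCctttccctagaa
Isg15: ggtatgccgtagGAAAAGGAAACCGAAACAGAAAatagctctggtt
Oas1a: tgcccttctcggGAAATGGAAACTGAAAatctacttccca
Ifit1: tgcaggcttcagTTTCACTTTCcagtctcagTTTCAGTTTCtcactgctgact
Bst2: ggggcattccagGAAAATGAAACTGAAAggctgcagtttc
Isg15 held 3 overlapping cores between -78 and -57, Oas1a 2 between -20 and -5, Bst2 2 between -130 and -115, Ifit1 2 separate cores between -104 and -76 and Stat2 1 at -222 to -213. Of these 5 genes, Isg15 and Oas1a were wholly higher in NHD13/MSI2 than in control, and the other 3 overlapped.

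The members also varied within groups. Control replicate 2 was the lowest of the 3 controls in 30 of 39 members (76.9%), against 34.2% of all genes, and lay below the mean of the other two by a median of -0.42 on the log2 scale, where all genes gave 0.01. Oas2 showed it most plainly, at 11.3 CPM in control replicate 2 and 52.3 and 44.8 CPM in the others. That library is also the one without Xist, so sex and the interferon level cannot be told apart in the controls. Control replicate 1, the control whose library name carries Bulk, was the highest in 23 of 39 members (59%, against 35.5% of all genes). The part of that difference in naming was not tested. When control replicate 2 was the only control kept, the member median of NHD13/MSI2 over control was 0.79. No member was called in that fit, which takes the spread of the lone control from the other groups and called 0.693% of all genes. Within NHD13/MSI2, replicate 2 was the lowest of the 4 libraries in 18 members (46.2%, against 18.7% of all genes) and replicate 4 in 17 (43.6%, against 37.6%). Over control, 11 members (28.2%) were called without replicate 4, against 15.5% of all genes in that fit. Without control replicate 1 or without control replicate 3, 3 members (7.69%) were called, against 5.32% and 4.90% of all genes.

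**Figure D4:**
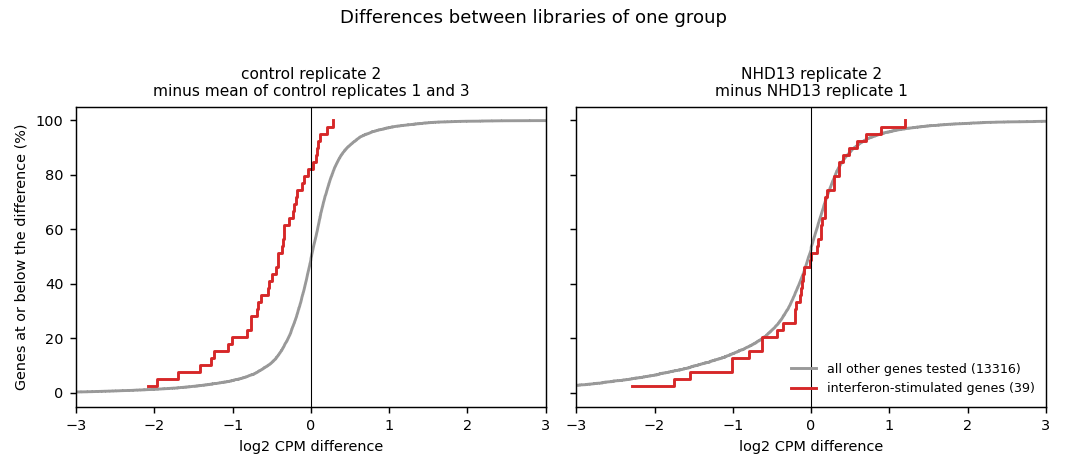
Cumulative share of genes (%) against the log2 CPM difference between libraries of one group, for the 39 members (red) and all other genes tested (grey). The left panel takes control replicate 2 minus the mean of control replicates 1 and 3, where the members lie mostly left of 0 with a median of -0.42, and the right panel takes NHD13 replicate 2 minus replicate 1.

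The rest of the pathway was covered by 126 further genes, of which 111 were tested. With NHD13/MSI2 over control 22 were called (19.8%, against the 11.0% of all genes given above), 17 higher and 5 lower. With NHD13/MSI2 over NHD13 3 were called (2.70%, against 3.17% of all genes), and with NHD13 over control 1 was (0.901%, against 1.03%). Of the 22, the calls of Ifngr2, Irf8, Unc93b1, Trex1, Samhd1, Ifi203 and Ifitm1 held whichever library was left out, and the other 15 were each lost without at least 1 control. Of the ligands, none was tested: 12 interferon genes were in the table, 5 had no count in any library and the highest count of any in a library was 8, for Ifnk, so interferon transcripts were at or near the floor of 3 counts in the sorted cells. This does not bear on interferon made by other cells of the marrow.

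Of the 9 receptor and kinase genes tested, 4 rose over control, against 4.49% of all genes. Ifnar2, the type I receptor chain, was at 74.7, 93.1 and 82.1 CPM in control, 112 and 151 CPM in NHD13 and 237, 248.6, 226 and 120.3 CPM in NHD13/MSI2, where replicate 4 alone lay among the NHD13 libraries (log2 fold change over control 1.32 ± 0.26, adjusted p = 0.00587 by edgeR). Ifnar1, the other chain, was at 123 to 140.2 CPM in control and at 218, 226, 244 and 817 CPM in NHD13/MSI2, and did not pass (1.52, adjusted p = 0.0476 by edgeR). The interferon gamma receptor chains both rose over control, Ifngr1 by 0.80 ± 0.14 (adjusted p = 0.00404 by edgeR) and Ifngr2 by 1.28 ± 0.17 (adjusted p = 0.000835 by edgeR) on the log2 scale. Ifngr1 was at 189 to 237 CPM in control, 418 and 445 CPM in NHD13 and 330.3 to 401 CPM in NHD13/MSI2, so the NHD13 libraries were the highest. Ifngr2 was at 31.4 to 42.1 CPM in control, 41.2 and 35.2 CPM in NHD13 and 80.1, 88.4, 76.6 and 103 CPM in NHD13/MSI2, and also rose over NHD13 (log2 fold change 1.19 ± 0.19, adjusted p = 0.00655 by edgeR), a call kept in 1 of the 9 fits that left out a library, that without NHD13/MSI2 replicate 4. Jak1, the kinase shared by both receptors, was at 536 to 597 CPM in control, 654 and 371 CPM in NHD13 and 1067 to 1679 CPM in NHD13/MSI2, and rose over control (1.21 ± 0.24 in log2, adjusted p = 0.00657 by edgeR).

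Among the signal transducers the picture was mixed. Irf1, an early target of interferon gamma, overlapped between groups (log2 fold change over control -0.11, adjusted p = 0.765 by edgeR). The kinase gene Tyk2 overlapped with NHD13 (0.72 over control, adjusted p = 0.0334 by edgeR). Irf8, which directs monocyte and dendritic cell fates, was at 49.5, 32.8 and 27.5 CPM in control, 142 and 254 CPM in NHD13 and 445, 488, 618 and 263 CPM in NHD13/MSI2. The 3 groups did not overlap, and Irf8 rose over control by 3.63 ± 0.38 on the log2 scale (adjusted p = 0.000268 by edgeR).

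Of the 13 sensor and adaptor genes tested, 2 rose over control, against 4.49% of all genes. Unc93b1, the chaperone of the endosomal Toll-like receptors, was at 92.3, 65.6 and 47.3 CPM in control, 113 and 153 CPM in NHD13 and 468, 433, 594 and 294 CPM in NHD13/MSI2 (log2 fold change 2.71 ± 0.31, adjusted p = 0.000447 by edgeR). Tlr9, the DNA receptor it carries, rose from 2, 0 and 0 reads in control to 13, 15, 25 and 19 reads in NHD13/MSI2, with 11 and 21 reads in NHD13. Of the 11 negative regulators tested 3 rose, against the same 4.49% of all genes. These were Trex1 (log2 fold change 1.05, adjusted p = 0.00127 by edgeR) and Samhd1 (1.02, adjusted p = 0.000668 by edgeR), which degrade cytosolic DNA and nucleotides, and Irf2bp2 (0.99, adjusted p = 0.00326 by edgeR).

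Of 69 other interferon-inducible genes tested, 7 (10.1%, against 4.49% of all genes) rose over control, namely Oas1g, Slfn2, Slfn5, Sp100, Dtx3l, Tapbp and Trim30d, and 4 (5.80%, against 6.55%) fell, namely Ifi27, Ifi203, Ifitm1 and Slfn9. Ifitm1, a membrane protein that blocks viral fusion, had the smallest p of all pathway genes. It was at 168, 171 and 226 CPM in control, 74.7 and 75.7 CPM in NHD13 and 13.7, 12.9, 14.8 and 10.6 CPM in NHD13/MSI2, in 3 groups without overlap. Ifitm1 fell in all 3 comparisons, by 3.85 ± 0.17 with NHD13/MSI2 over control, by 2.53 ± 0.18 over NHD13 (adjusted p = 0.000261 by edgeR) and by 1.32 ± 0.20 with NHD13 over control (adjusted p = 0.00795 by edgeR) on the log2 scale. The first pair of calls held whichever library was left out, and the call of NHD13 over control held in 1 of those 9 fits, that without NHD13/MSI2 replicate 4. Ifi203, a nuclear DNA-binding family member, was at 248.7 to 288 CPM in control, 138 and 320.0 CPM in NHD13 and 37.1, 37.4, 51.6 and 60.0 CPM in NHD13/MSI2, and fell over both (log2 fold changes -2.51 ± 0.29 and -2.30 ± 0.31, adjusted p = 0.000443 and 0.00305 by edgeR). The Ifi203 call over NHD13 was lost without NHD13 replicate 2 and without NHD13/MSI2 replicate 1 or 2. Oas1g rose over control, at 3.42 to 8.75 CPM in control, 8.55 and 9.04 CPM in NHD13 and 20.0 to 33.8 CPM in NHD13/MSI2 (log2 fold change 2.19 ± 0.35, adjusted p = 0.00231 by edgeR). The other calls over control ranged from 0.63 for Sp100 to 1.81 for Slfn2 among those that rose, and were -0.99 for Ifi27 and -0.90 for Slfn9. Ly6a, the Sca-1 gene on which the cells were sorted and itself inducible by interferon, was at 79.3 to 89.8 CPM in control, 69.0 and 48.3 CPM in NHD13 and 375, 254, 312 and 98.6 CPM in NHD13/MSI2 (3.03-fold over control, adjusted p = 0.0167 by edgeR, not called).

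**Figure D5:**
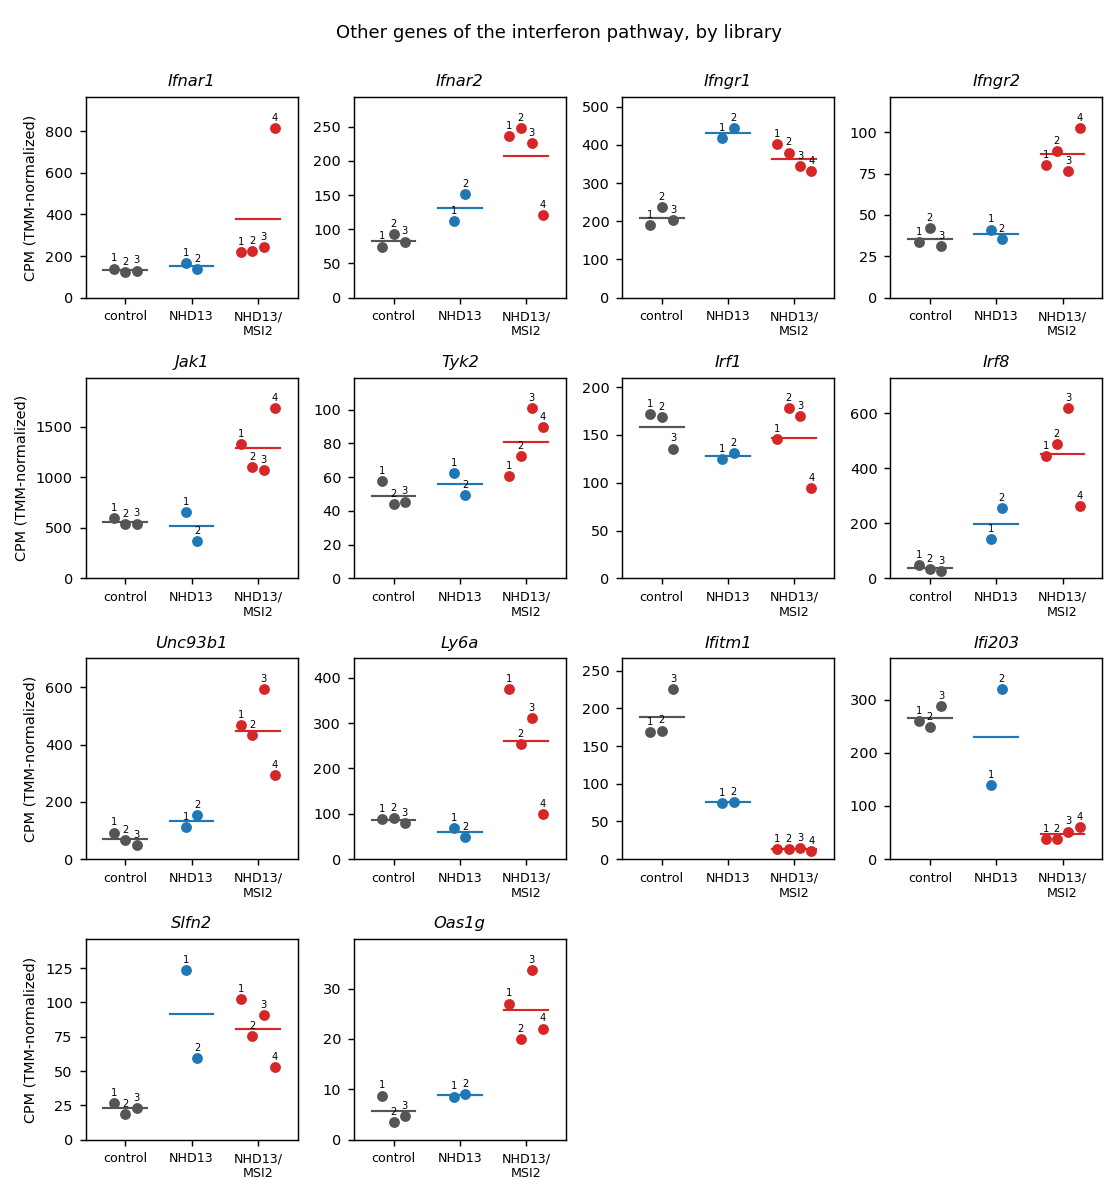
CPM of each library for 14 pathway genes outside the member list, 1 panel per gene with its own linear axis from 0, points for libraries numbered by replicate and a line at each group mean. Ifitm1 and Ifi203 are lowest and Irf8 and Unc93b1 highest in the 4 NHD13/MSI2 libraries, and the groups overlap for Irf1.

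Transcripts of other cell types moved with the same groups. In bulk cells, fewer cells of a type and less RNA per cell cannot be told apart. For all marker calls over control below, the shares of all genes called were 4.49% higher and 6.55% lower. Of 11 monocyte and macrophage markers tested, Csf1r and Ly86 rose over control, and the list summed to 28.3 to 55.8 CPM in control, 374 and 501 CPM in NHD13 and 708 to 905 CPM in NHD13/MSI2, with Csf1r at 9.02 to 15.5, 94.9 to 122 and 281 to 473 CPM, while Cd14 stayed at or below 0.92 CPM in every library. Of 11 plasmacytoid dendritic cell markers tested, Pld4 and Cd209d rose over control. The list summed to 385 to 437 CPM in control, 547 and 812 CPM in NHD13, and 1098 to 1370 CPM in NHD13/MSI2. Pld4 was at 5.88 to 15.1, 149 to 169.6 and 366 to 584 CPM, and the defining Siglech at or below 1.23 CPM. Most of the NHD13/MSI2 sum was Pld4, Clec12a and Tcf4, at means of 445, 431 and 268 CPM. Over NHD13, 6 of the 11 markers had positive and 5 negative log2 fold changes, from -3.38 to 3.35. Of 12 neutrophil markers, Cxcr2 and the progenitor gene Mpo rose. The other 10 had negative log2 fold changes, none of them called, and S100a8, S100a9, Ngp, Ltf, Camp and Lcn2 lay wholly below the controls. Mpo, at a mean of 1549 CPM in control and 10791 CPM in NHD13/MSI2, dominated the list, which summed to 2247 to 4274 CPM, 3153 and 4466 CPM, and 8504 to 14443 CPM. The B cell list summed to 49.7 to 68.4, 126 to 147 and 271 to 454 CPM. Most of its NHD13/MSI2 sum was Cd79a and Cd79b, at means of 184 and 151 CPM. Of its 10 markers, 6 had positive and 4 negative log2 fold changes over control, from -3.41 to 7.17. Of 8 T and NK cell markers tested, Cd5, Cd6 and Klrb1c rose over control (29.9-fold, 36.8-fold and 6.64-fold) and Nkg7 fell 9.34-fold, and the list summed to 235 to 414, 271 to 289 and 190 to 280 CPM. Erythroid markers summed to 103 to 227, 10.9 to 28.7 and 0.997 to 19.3 CPM and megakaryocyte markers to 99.8 to 290, 108 to 778 and 22.3 to 50.3 CPM. Of the 13 LSK markers 8 fell and 1 rose over control, against 6.55% and 4.49% of all genes. The LSK list summed to 5917 to 6982, 3112 to 4469 and 3611 to 4457 CPM. The members themselves summed to 3441 to 4133, 3902 and 4424, and 4643 to 6057 CPM. Ly6e was the largest part of that sum, at means of 823, 1323 and 2253 CPM in control, NHD13 and NHD13/MSI2. The member sum therefore mostly follows this gene and does not describe the members as a set. The part of these lists in the member differences was not tested.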

How the data were processed

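The study sequenced total RNA of sorted LSK cells in 9 libraries (3 control, 2 NHD13 and 4 NHD13/MSI2), grouped by their titles. Per the labels and the submitters' processing notes, the authors aligned reads with STAR to mm9 and counted them per gene with HTSeq, and they deposited 1 table of raw counts. The versions and the strand setting are not given in the sources used here.

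In that table the gene names sit 2 rows too high after the rows that a spreadsheet turned into dates (the March genes). The 11942 names after them (49.6%) were moved down 2 rows, which put 20 of 20 abundant general genes over a mean of 1000 counts, against 8 at their deposited place. Of the 39 members, 21 had a moved name. The 13 rows left without a name, 0.0253 to 0.0323% of a library, stayed out of library sizes and tests. Every column of the table was mapped to a sample.

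Counts were filtered with filterByExpr, scaled with TMM and tested with edgeR 4.0.16 (quasi-likelihood test, R 4.3.3, limma 3.58.1) over all 9 libraries with 3 group means, as the study fitted a linear model over its groups. Benjamini-Hochberg adjustment ran over all 13355 genes tested, called at an adjusted p under 0.01. CPM values are scaled by TMM, and SE is the log2 fold change divided by the square root of its F statistic. Totals of 19242153 to 23013493 counts per library limit low genes by counting error only. The test was tried on simulated counts first. Exon lengths and positions came from GENCODE M21 (GRCm38), which held 95.6% of tested symbols and is another build than the counting, and promoters from RefSeq (GRCm38.p6). No promoter was matched for Dhx58, Zbp1, Usp18, Oas2, Mx1, Mx2, Rtp4, Ly6e, Parp9 and Parp14.

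The members and all lists were chosen with earlier results of these data known. Named with full values were the called members, others by smallest p up to 12 and the best-known members. Of the pathway, 10 fixed genes and the called genes were to be named. Several of these have a fold change only or are given by name only. Promoters were to be shown for called members with an ISRE. Alternatives were RLE scaling, other filters, a robust fit, DESeq2 1.42.0, the replicate number as a block, only the groups compared, control replicate 2 as the only control, the names as deposited, an adjusted p under 0.05, a longer ISRE core, and each library left out. Some genes are not reported here.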

Additional observations from a re-analysis of the deposited data

Results flagged for a closer look

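In NHD13/MSI2, replicate 4 lay farther from the other 3 libraries than Dixon's critical value for 4 samples allows in 6 of 66 genes examined, 4 of them members. Chance flags about 1 in 20 such groups. The share of all genes flagged was not counted, so an excess in these genes cannot be read from this number. Replicate 4 was the lowest of its group in 37.6% of all genes tested and the highest in 35.5%. It was the highest for Ddx58, at 57.5 CPM against 31.1 to 35.3 CPM, for Ifnar1, at 817 CPM against 218 to 244 CPM, and for Tapbp, at 702 CPM against 520.2 to 541 CPM. It was the lowest for Zbp1, at 5.91 CPM against 11.8 to 12.4 CPM, for Gbp3, at 193 CPM against 275 to 279.9 CPM, and for Xaf1, at 31.9 CPM against 40.8 to 41.3 CPM. The same library held Gapdh at 96.1 CPM against 253 to 380.0 CPM elsewhere and Eef1a1 at 3059.8 CPM against 8616 to 12148 CPM. Their part in these values was not tested.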

How the results depend on the processing

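The direction of the member medians of NHD13/MSI2 over both groups held in every alternative run, whereas the counts moved. For NHD13/MSI2 over NHD13, 423 genes were called, 203 with the replicate number as a block, 30 with only the 2 groups, 38 with control replicate 2 as the only control, 1292 by DESeq2, 1177 at an adjusted p of 0.05 and 128 to 646 with each library left out, with 404 to 646 without NHD13 replicate 2 or NHD13/MSI2 replicate 4 and at most 221 otherwise. No member was called, against 1 with the names as deposited, 3 by DESeq2, 2 at 0.05 and 0 to 1 with each library left out. The 3 pathway calls became 1 with only the 2 groups, 1 with control replicate 2, 11 by DESeq2, 11 at 0.05 and 1 to 10 with each library left out. For NHD13/MSI2 over control, 1474 genes were called, 95 with control replicate 2 as the only control, 2590.0 by DESeq2, 2745 at 0.05 and 647 to 2066 with each library left out. The 6 members became 0, 12, 12 and 3 to 11 in the same order, and the 22 pathway genes 1, 36, 39 and 7 to 32. For NHD13 over control, 138 genes were called, 83 with only the 2 groups, 7 with control replicate 2, 602 by DESeq2, 386 at 0.05 and 38 to 251 with each library left out. Of the members 0 were called, 1 by DESeq2 and 0 to 1 with each library left out. The 1 pathway call became 3 without a filter, 2 at a mean of 50 counts, 3 with the block, 0 with only the 2 groups, 0 with control replicate 2, 9 by DESeq2, 4 at 0.05 and 0 to 5 with each library left out. With control replicate 2 as the only control the member median moved from 0.34 to 0.79 for NHD13/MSI2 over control and from -0.09 to 0.30 for NHD13 over control. With each library left out the medians ran from 0.251 to 0.433 for NHD13/MSI2 over NHD13, from 0.243 to 0.502 for NHD13/MSI2 over control and from -0.157 to 0.048 for NHD13 over control. The share of member promoters with an ISRE moved from 48.3 to 27.6% with the longer core.

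Deviations of same-numbered libraries correlated at -0.0716 to 0.194 over 7 pairs. Those of differently numbered libraries from different groups correlated at -0.194 to 0.153. With 2 NHD13 libraries, their deviations mirror each other, so these values cannot show whether library numbers pair the samples. With the replicate block the members called were 0, 8 (20.5%) and 0 in the 3 comparisons, against 1.52%, 10.5% and 0.756% of all genes. The member medians in that fit were 0.32, 0.38 and -0.01.

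Each reversal came with the names as deposited, where a name sits on another gene's counts. These log2 fold changes were -3.33 for Oas1a and -2.97 for Trex1 over NHD13, and over control -0.18 for Mx1, -3.93 for Oas1a, -1.99 for Tlr9, -0.28 for Slfn2, -0.17 for Tapbp and -0.0095 for Tyk2. For NHD13 over control they were -1.32 for Tlr9 and -0.12 for Slfn5. Of the values of named genes under alternatives, 1378 kept direction and side of the threshold, 81 gained a call and 149 lost one. The causes of the moves in count were not tested. With 2 NHD13 libraries, a fit that leaves 1 out assumes that the lone library varies like the other groups.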

Other observations

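Guanylate-binding protein genes outside the member list differed widely between the NHD13 replicates. Gbp4 was at 87.1 CPM in NHD13 replicate 1 and 3.36 CPM in replicate 2, Gbp6 at 40.3 and 2.82 CPM, Gbp8 at 46.5 and 1.93 CPM, and Gbp9 at 27.8 and 3.26 CPM. In these 4 genes replicate 1 lay above the controls, whose highest values were 41.7, 29.9, 19.7 and 22.2 CPM, and replicate 2 lay below their lowest values of 7.97, 6.31, 6.64 and 4.37 CPM. The NHD13/MSI2 libraries were at 4.22 to 9.28 CPM for Gbp4, 3.41 to 7.47 CPM for Gbp6, 0.414 to 4.39 CPM for Gbp8 and 6.83 to 11.4 CPM for Gbp9. Gbp3, a member, ran the other way between the NHD13 replicates, at 133 and 307 CPM. These genes were picked after their values were seen, and near-identical copies among them may share reads.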
